A study of Mus musculus with 4 samples.

Results

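Scleral fibroblast spots are the spots of 4 Visium capture frames in which RNA of fibrous collagen and proteoglycan genes is concentrated. Visium counts the RNA caught under each spot of a printed grid as unique molecular identifiers (UMIs), and a spot can cover several cells of different types. A spot was taken as a member when it had at least 200 UMIs, at least 4 UMIs of Col1a1, Col1a2, Col3a1, Dcn, Lum, Fmod, Ogn and Mgp together, and a share of these 8 matrix genes of at least 0.4% of its UMIs. A member also had at most 3 UMIs of 6 pigment epithelium genes (Rpe65, Rgr, Rdh5, Lrat, Best1 and Rrh) and at most 4 UMIs of 6 skeletal muscle genes (Acta1, Ckm, Mylpf, Tnnt3, Tnnc2 and Myh4). This gave 87 spots of the 3778 with at least 200 UMIs and of the 4603 over tissue in all. The members were thus chosen by the measured UMIs of these 20 genes and not by their place in the section. They are called fibroblast spots here.

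The tissue was the fresh-frozen posterior eye of C57BL/6J mice, cut on a cryostat, with 1 library per frame. The labels name retina as the tissue and give all 4 frames the same treatment, Naive+AAV2/2, with no age. The design text describes an AAV2/2 vector in which the CMV promoter drives HA-tagged Wif1, with or without IRES-GFP, a CMV-IRES-GFP vector as the control, and eyes taken as control or at 2 or 4 weeks after injection. The labels do not tie a frame to any of these, so the frames serve as 4 replicates of 1 group and no treatment is compared. The labels number the frames as biological replicates but do not say whether they come from separate animals. A p-value here therefore weighs a difference against the scatter of these frames, part or all of which may be technical.

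The sclera is the white fibrous wall of the eye. Its fibroblasts secrete type I collagen, which is laid down as fibrils of uneven width, and small leucine-rich proteoglycans such as decorin, biglycan, lumican and fibromodulin, which bind those fibrils and limit their growth. Scleral fibroblasts remodel this matrix through proteases, protease inhibitors and growth factor carriers, and changes in the sclera around the optic nerve head are studied in glaucoma and in myopia.

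The promoters of Myoc, Chad and the matrix protease gene Mmp3 are shown because these 3 had the largest positive folds among genes whose call held with each frame left out in turn. Each runs from 250 bases before to 50 after the start of the gene on its plus strand (RefSeq, GRCm38.p6), and capitals mark matches on either strand to the TATA box motif TATAAA, to the box motif CCAAT, which reads as ATTGG from the other strand, or to the AP-1 motif TGANTCA. Myoc lies at chr1:162638900-162639199, Chad at chr11:94564797-94565096 and Mmp3 at chr9:7445572-7445871.
Myoc: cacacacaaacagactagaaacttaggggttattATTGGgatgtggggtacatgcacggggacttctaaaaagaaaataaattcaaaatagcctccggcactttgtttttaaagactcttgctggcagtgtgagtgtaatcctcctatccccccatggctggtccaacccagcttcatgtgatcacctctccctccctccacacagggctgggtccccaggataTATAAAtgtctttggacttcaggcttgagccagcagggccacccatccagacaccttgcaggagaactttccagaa
Chad: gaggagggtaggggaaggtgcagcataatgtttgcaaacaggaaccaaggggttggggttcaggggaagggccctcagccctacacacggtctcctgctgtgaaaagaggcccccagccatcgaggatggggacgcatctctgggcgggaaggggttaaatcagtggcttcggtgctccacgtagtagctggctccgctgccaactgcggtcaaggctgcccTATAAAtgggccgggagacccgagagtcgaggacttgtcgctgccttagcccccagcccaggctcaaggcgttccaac
Mmp3: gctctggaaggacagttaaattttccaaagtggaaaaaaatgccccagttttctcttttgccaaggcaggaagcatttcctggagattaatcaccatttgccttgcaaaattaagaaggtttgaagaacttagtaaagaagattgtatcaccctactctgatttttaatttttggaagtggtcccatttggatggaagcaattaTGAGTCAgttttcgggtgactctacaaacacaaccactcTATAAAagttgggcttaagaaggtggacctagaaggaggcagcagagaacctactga
All 3 windows hold the TATA box motif, beginning 26 (Myoc), 28 (Chad) and 7 (Mmp3) bases before the listed start, and the Mmp3 window also holds an AP-1 match. Of the 37 genes that were higher in fibroblast spots (below 0.05 after adjustment, as described further on), 25 had a promoter in the table, and 5 of these held the TATA box motif (Myoc, Chad, Mmp3, Ace and Thbs2) against 15.7% of 27025 promoters of the same length. The CCAAT box was in 8 of 25 against 41.1% and the AP-1 motif in 2 of 25 against 8.97%. Some of these genes, among them Chad, Mmp3 and Thbs2, were tested only because they were high in fibroblast spots, as described further on. The counts are thus a description, and these are matches of letters only.

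Frames 1 to 4 held 28, 11, 24 and 24 fibroblast spots. These were 2.94% (exact Clopper-Pearson 95% interval 1.96 to 4.21), 1.03% (0.514 to 1.83), 2.60% (1.67 to 3.84) and 2.89% (1.86 to 4.27) of spots with at least 200 UMIs, with a mean of 2.36% ± 0.902 (SD, n = 4). Frame 2 held the fewest, and its interval ended below the values of the other frames. The intervals cover counting error only.

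The 87 spots held 91115 UMIs, namely 31912, 9280, 27926 and 21997 by frame, while the other spots of at least 200 UMIs held between 619246 and 1037873 per frame. Median UMIs per fibroblast spot were 1043, 490, 1085 and 866, against 666.5, 733, 703 and 580 in the other spots. Fibroblast spots were thus deeper than other spots in frames 1, 3 and 4 and shallower in frame 2. In frame 2 the deepest spot alone, with 3135 UMIs, gave 33.8% of the frame's fibroblast UMIs, and 1 UMI there is worth more in CPM (UMIs per 1e+06 UMIs of the library) than in any other frame. All frames came from grids of the same design, so 1271 of 2458 barcodes occurred in more than 1 frame, and 1 member barcode did so.

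**Figure D1:**
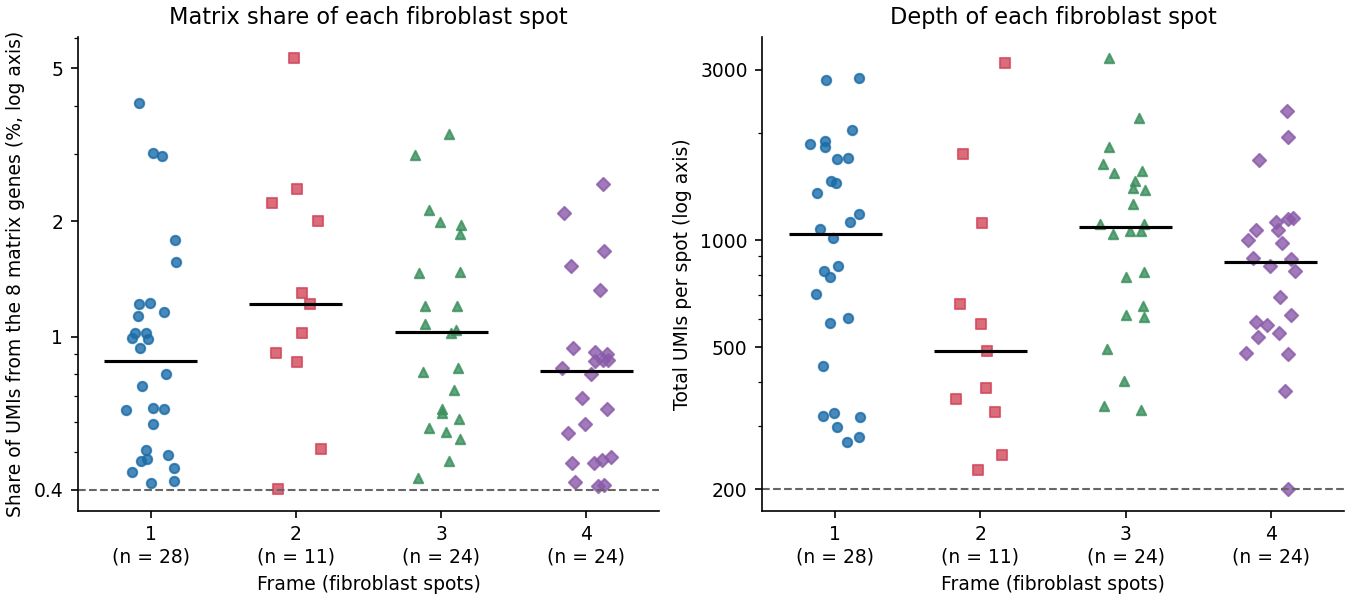
Each point is 1 fibroblast spot, by frame, with the share of UMIs from the 8 matrix genes on the left (percent, log axis) and the total UMIs on the right (log axis). Bars are frame medians and dashed lines the limits of the rule, 0.4% and 200 UMIs. Shares run from just above the limit to 5.31%, and frame 2 has the fewest spots and the lowest median UMIs.

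The matrix genes themselves chose the spots, so their values are a description. Matrix share had a median of 0.870% over the 87 spots (middle 50% of spots 0.572 to 1.31, highest 5.31). Col1a1, which encodes a chain of type I collagen, had 96, 54, 161 and 68 UMIs in fibroblast spots of frames 1 to 4 and lay in 72 of 87 spots. Col1a2, the partner chain, had 54, 14, 90 and 50 UMIs in 63 spots. Decorin (Dcn) had 31, 9, 42 and 14 UMIs in 48 spots, fibromodulin (Fmod) 26, 5, 30 and 7 in 39 spots, and Mgp, a secreted inhibitor of mineral deposition, 20, 12, 13 and 17 in 28 spots. The type III collagen gene Col3a1 reached 14 spots, lumican (Lum) 6 and osteoglycin (Ogn) 4. Type I collagen and decorin thus carry most of the selection, and Lum and Ogn almost none of it. The evidence varied between spots: 29 of 87 had 10 or more matrix UMIs, while 7 spots had UMIs of 1 matrix gene, 19 of 2 and 26 of 3, and 35 of 4 or more.

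Fibroblast spots held 854 of the 3287 matrix UMIs in the frames. By frame this was 25.9, 10.4, 39.5 and 32.6%. Another 23.6% lay in spots with at least 4 pigment epithelium UMIs, and 38.8% in other spots with 1 to 3 matrix UMIs. Of 213 spots with at least 4 matrix UMIs, 126 were not members: 83 had too low a share, 48 too many pigment UMIs, 5 too many muscle UMIs and 9 too few UMIs in all, with some counted more than once. Just inside the limit, 12 members with 4 matrix UMIs had a median share of 0.672%, and 24 spots with 3 such UMIs that met every other limit had 0.676%. At the share limit, 17 members between 0.4 and 0.5% had a median of 0.456%, and 22 spots between 0.3 and 0.4% a median of 0.362%. The edge of the set is therefore gradual.

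Markers of the label were read next. Kera, the keratocan gene of corneal and scleral stroma, had 0 UMIs in all 87 spots, Lox, which crosslinks collagen, also 0, and Pdgfra, a fibroblast surface receptor, 1. The cartilage gene Cnmd was at 0, and Acan was at 0 in all spots compared. The cartilage and tendon list that holds both was nevertheless higher in each frame, at 470, 216, 609 and 182 CPM against 177, 191, 186 and 149 CPM. It rests on 15, 2, 17 and 4 UMIs, and its member Thbs4 had 17 UMIs in 10 spots. Genes found in other cells were plentiful. The 20 rod genes of a fixed list summed to 52237, 25647, 31333 and 32232 CPM in fibroblast spots and 35039, 32542, 38176 and 34573 CPM in the other spots. Rod RNA was thus above the other spots in frame 1 and below them in frames 2, 3 and 4. The 10 melanocyte genes stood at 4356, 8405, 9060 and 1364 CPM against 2511, 3278, 2899 and 786 CPM, and 69 of 87 spots held at least 1 melanocyte UMI. The spots are mixtures, and these genes do not separate sclera from choroid, episclera or the sheath of the nerve. A higher level in such spots can reflect more cells of a type or more RNA per cell, which cannot be told apart here.

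Gene by gene comparison with the other spots of the same frame was run on UMIs summed per frame, with frame as a block, after the 20 rule genes were left out. The rule did not use the genes tested, but they come from the same spots, so genes made by the same cells as Col1a1 or Dcn were placed to be higher by the choice of spots. In fibroblast spots 37 of 4677 genes were higher and 37 lower (edgeR's quasi-likelihood test, Benjamini-Hochberg adjusted p below 0.05), 0.791% in each direction and 1.58% in either. The median log2 fold of all tested genes was -0.38, and each fold below is to be read against that. Without TMM scaling the median was -0.08 and 81.6% of the called genes were higher, and with DESeq2 72.6%, against an even split here. The higher genes included Myoc, Bgn, Col12a1, Sparc and other secreted matrix genes, and the lower genes included the neurofilament genes Nefl and Nefm.

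The calls rest on few frames. Without frame 3 the test called 13 genes higher and 5 lower, without frame 4 it called 11 and 8, and without frame 1 it called 27 and 11. With 1 frame left out, 73 of the 74 genes were tested in at least 1 fit (all but Hspg2), and 9 passed in every one of the 4: Myoc, Chad, Mmp3, Bgn and Mmp23 higher, and Nefl, Nefm, Nap1l5 and Lars2 lower. Over 17 alternatives, some chosen after seeing the data, 6 of the 74 genes passed in each that tested them. These 6 were Myoc, Chad, Bgn, Nefl, Nefm and Nap1l5. Mmp3 lost the call in 2 of the 14 alternatives that tested it, Mmp23 in 2 of 17 and Lars2 in 1 of 17. A further limit is the filter on low counts, which 11 of the 37 higher genes met through the fibroblast libraries alone (Igfbp2, Serpine2, Lamc1, Hspg2, Rcc1l, Fcgrt, Mmp3, Tagln, Chad, Serpinb6a and Thbs2). These had to be high there to be tested at all, so their values are a description. The counts of higher genes and the median folds per list given below can include them, so neither is support for a list. With a filter on the UMIs of both arms together, also chosen after seeing the data, 18 genes were higher and 38 lower among 8319 tested, and 15 of the 37 higher and 36 of the 37 lower genes were among them.

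Folds are log2 folds of fibroblast over other spots from that fit, ± the standard error, n = 4 frames in each arm, and adjusted p-values come from the same edgeR test. Bgn encodes biglycan, a small proteoglycan of collagen fibrils. It had 17, 14, 22 and 8 UMIs in fibroblast spots, or 533, 1509, 788 and 364 CPM, against 71.6, 100.2, 86.5 and 53.3 CPM in other spots. Fibroblast spots were higher in 4 of 4 frames with no overlap of the arms (fold 2.88 ± 0.459, adjusted p = 3.27e-07), and the UMIs lay in 33 of 87 spots. Chad, the chondroadherin gene of the same leucine-rich family, had 4, 1, 7 and 5 UMIs (125, 108, 251 and 227 CPM) against 9.54, 7.71, 15.4 and 12.9 CPM (fold 3.64 ± 0.568). Hspg2, the perlecan gene of basement membranes, had 1, 1, 2 and 1 UMIs, so its fold of 3.51 ± 0.695 rests on 5 molecules. Of the 17 proteoglycan genes outside the rule, 4 were tested and these 3 were called higher, but Chad and Hspg2 were tested only because they were high in the fibroblast libraries. The list summed to 846, 1940, 1540 and 773 CPM against 192, 208, 192 and 191 CPM.

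Among collagens beyond types I and III, Col12a1 stood out, a fibril-associated collagen that links fibrils to their surroundings. It had 16, 3, 14 and 12 UMIs, or 501, 323, 501 and 546 CPM, against 89.5, 68.4, 55.7 and 42.0 CPM. Every fibroblast library lay above every other library (fold 2.63 ± 0.519, adjusted p = 0.000108), but the gene did not pass without frame 3 (adjusted p = 0.0936) or without frame 4 (0.151). Col8a2, a network-forming collagen, had 345, 539, 286 and 90.9 CPM against 50.1, 94.4, 55.7 and 54.9 CPM and did not pass (fold 1.92 ± 0.582, adjusted p = 0.0584). Col6a2, part of the beaded type VI collagen filament, had 17 of its 22 UMIs in frame 3 and did not pass either. Of 17 collagen genes on the list, 6 were tested and 1 was higher. Their summed level was 1347, 1401, 2077 and 1137 CPM against 342, 439, 365 and 276 CPM, higher in fibroblast spots in each frame. The median fold of the 6 was 1.72, beside -0.38 over all tested genes.

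Genes that handle procollagen before it forms fibrils were represented by Sparc, a collagen-binding protein needed for fibril assembly. Sparc had 1316, 2263, 3617 and 1546 CPM in fibroblast spots against 513, 464, 359 and 367 CPM, from 198 UMIs in 58 of the 87 spots. The arms did not overlap, and frame 3 was highest (fold 1.95 ± 0.349, adjusted p = 1.28e-05). Without frame 3 the adjusted p was 0.390 and without frame 4 it was 0.100. The collagen chaperone Serpinh1 (157, 108, 107 and 182 CPM against 26.2, 31.8, 37.9 and 21.0), the procollagen protease Adamts2 and the enhancer of C-propeptide removal Pcolce did not pass. On this list 8 of 25 genes were tested and 1 was higher, with a median fold of 1.27.

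Mfap5, which encodes a glycoprotein of the fibrillin microfibrils that scaffold elastic fibres, had 439, 754, 537 and 864 CPM against 84.7, 119, 117 and 67.8 CPM. All 4 fibroblast libraries were above all 4 others (fold 2.40 ± 0.461, adjusted p = 5.98e-05). Without frame 4 it did not pass (adjusted p = 0.229), and in frame 2 its 7 UMIs were in 1 spot. Mfap2, another microfibril gene, had 14 of its 18 UMIs in frame 3 and did not pass, and neither did fibulin-1 (Fbln1) with 219, 0, 573 and 182 CPM against 135, 84.8, 92.5 and 66.2. Of the 18 genes of elastic fibres and microfibrils, 7 were tested and 1 was higher.

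**Figure D2:**
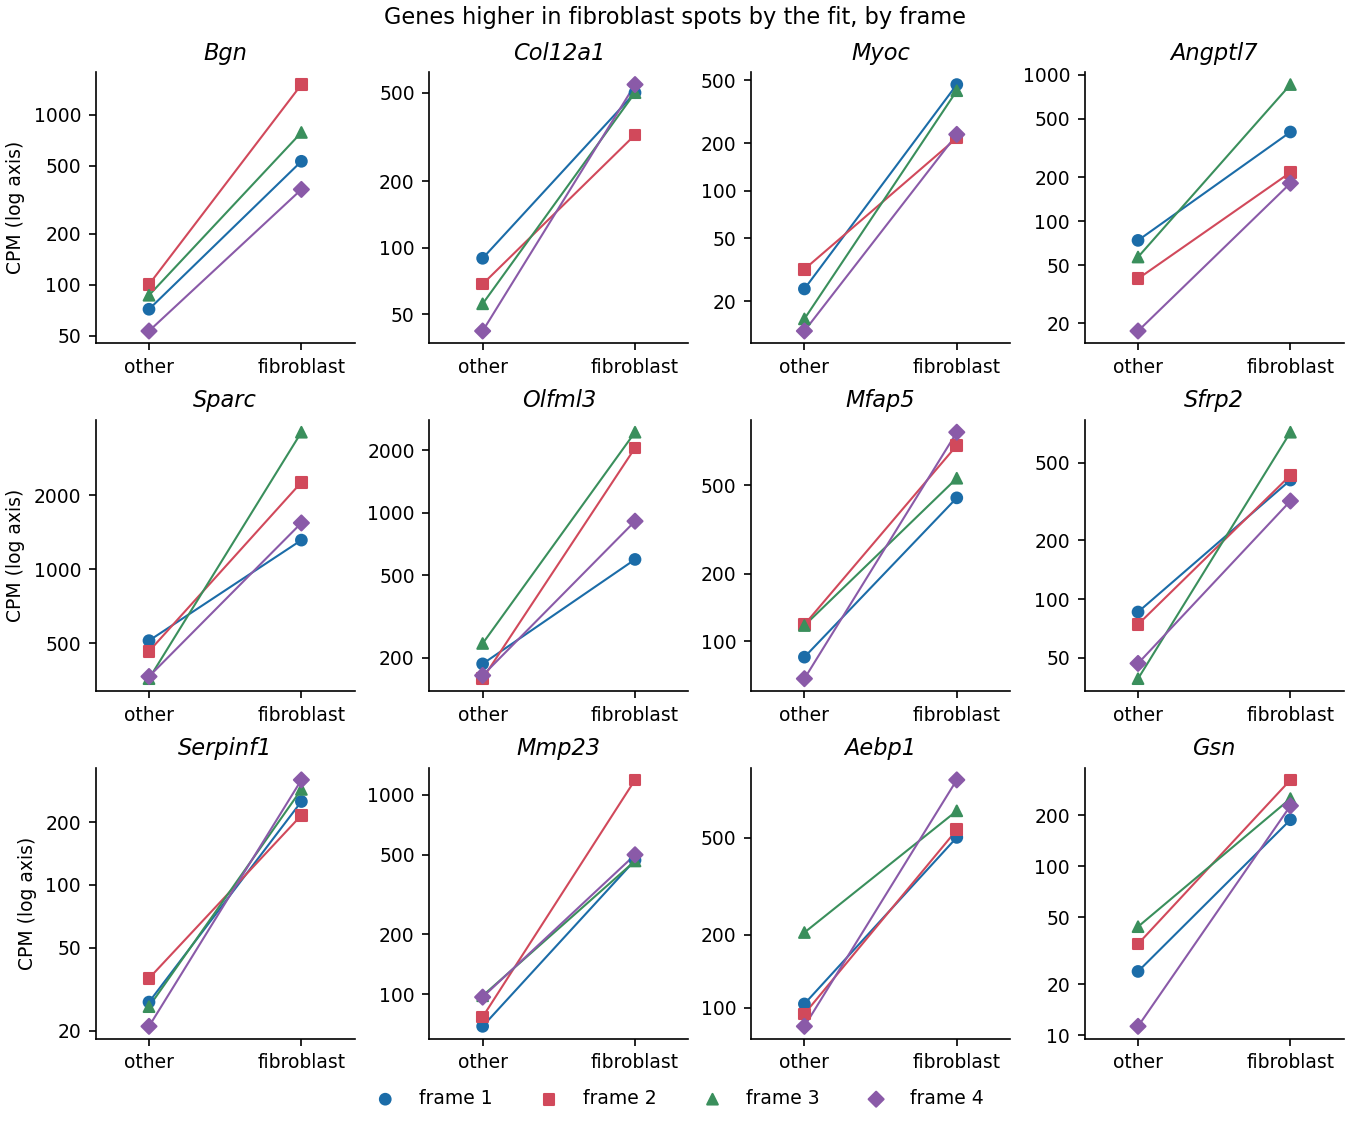
CPM (log axis, own scale in each panel) of 12 genes higher in fibroblast spots, with the other spots of a frame on the left and its fibroblast spots on the right. Each line is 1 of 4 frames. In each panel every frame rises, and Sparc and Olfml3 have their highest fibroblast value in frame 3.

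Secreted adhesive and matricellular proteins included the gene with the largest positive fold among those higher in every frame. Myoc encodes myocilin, an olfactomedin-domain protein known from the trabecular meshwork and sclera whose mutations cause open-angle glaucoma. It had 15, 2, 12 and 5 UMIs in fibroblast spots, or 470, 216, 430 and 227 CPM, against 23.9, 31.8, 15.4 and 12.9 CPM in other spots. The lowest fibroblast library was above the highest other library (fold 3.81 ± 0.627, adjusted p = 7.47e-07), and 21 of 87 spots held the UMIs. Angptl7, a secreted angiopoietin-like protein of cornea, sclera and outflow tissue, had 407, 216, 859 and 182 CPM against 74.0, 40.5, 56.9 and 17.8 CPM (fold 2.82 ± 0.576, adjusted p = 0.000245). It did not pass without frame 3 (adjusted p = 0.363) or without frame 4 (0.0532). Thbs2, a thrombospondin that regulates fibril assembly, had 9 UMIs in all (fold 2.83 ± 0.626) and was lost without frame 2 (0.118) or frame 4 (0.151). Ccn2, the connective tissue growth factor gene, had 8, 0, 5 and 5 UMIs (fold 2.63 ± 0.662, adjusted p = 0.00836), higher in 3 of 4 frames and at 0 in frame 2. Ccn2 was not tested without frame 1 and did not pass without frame 3 (0.387) or frame 4 (0.242). Of 29 genes on this list, 25 were in the matrices, 7 were tested and these 4 were higher, with a median fold of 2.63 over the 7. Fibronectin (Fn1) had 1, 2, 1 and 2 UMIs and did not pass.

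Olfml3, a secreted olfactomedin-like scaffold protein outside the lists, had 595, 2047, 2435 and 909 CPM against 187, 159, 235 and 165 CPM. The 126 UMIs of Olfml3 lay in 40 of 87 spots, and the arms did not overlap (fold 2.49 ± 0.385, adjusted p = 1.52e-07). Without frame 3 its adjusted p was 0.0587. It is named after its value was seen, as are Aldh3a1, Fmo1, Ace, Actb, Txnip, Nap1l5, Crmp1, Gm42418 and AY036118 further on.

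The list of matrix proteases and inhibitors included Mmp23 and Serpinf1 among the higher genes. Mmp3 encodes stromelysin-1, which degrades proteoglycans and activates other metalloproteases. It had 9, 6, 1 and 2 UMIs (282, 647, 35.8 and 90.9 CPM) against 14.3, 10.6, 29.6 and 12.9 CPM, so frame 3 differed little and frames 1 and 2 carried the fold of 3.31 ± 0.612. Mmp23, a small metalloprotease, had 470, 1185, 466 and 500 CPM against 69.2, 77.1, 98.4 and 96.9 CPM (fold 2.48 ± 0.474, adjusted p = 5.51e-05). It was above the other spots in 4 of 4 frames and passed with any frame left out (adjusted p = 0.00177 to 0.0404). Serpinf1, the gene of pigment epithelium-derived factor, a secreted inhibitor of vessel growth, had 251, 216, 286 and 318 CPM against 27.4, 35.6, 26.1 and 21.0 CPM. The arms did not overlap (fold 3.03 ± 0.628, adjusted p = 0.000316), but Serpinf1 did not pass without frame 3 (0.0936) or frame 4 (0.100). Serpine2, an inhibitor of thrombin and urokinase, had 13 UMIs (fold 2.52 ± 0.628) and passed only without frame 1, its adjusted p being 0.0778, 0.437 and 0.242 without frames 2, 3 and 4. Timp3, which stays bound to matrix and inhibits metalloproteases, had 407, 539, 1218 and 818 CPM against 192, 348, 287 and 160 CPM and did not pass (fold 1.32 ± 0.410, adjusted p = 0.0679). Of 20 genes on the list, 11 were tested and 4 were higher.

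Genes of the fibroblast surface and cytoplasm included Aebp1, a collagen-binding protein also called ACLP. Aebp1 had 501, 539, 645 and 864 CPM against 104, 94.4, 204 and 84.0 CPM (fold 2.12 ± 0.451, adjusted p = 0.000561), with no overlap of the arms. It did not pass without frame 3 (0.0724) or frame 4 (0.382). The actin-severing protein gelsolin (Gsn) had 188, 323, 251 and 227 CPM against 23.9, 34.7, 43.9 and 11.3 CPM (fold 2.84 ± 0.649, adjusted p = 0.0019). Without frame 1, 3 or 4 it did not pass, with adjusted p-values of 0.0507, 0.0921 and 0.228. The galactose-binding lectin gene Lgals1 (fold 2.23 ± 0.625) and the lipid carrier gene Apod (2.31 ± 0.674), both common in fibroblasts, were higher too, and neither passed with any frame left out (adjusted p at least 0.0757 and 0.242). In this list 16 of 32 genes were tested and 4 were higher. Its summed level was 2319, 4203, 3473 and 3773 CPM against 1554, 1418, 1458 and 1305 CPM. Cd34 and Pdgfra, surface markers of many connective tissue fibroblasts, had 1 UMI each.

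Carriers of insulin-like growth factors represented the TGF-beta, BMP and IGF list, of which 12 of 27 genes were tested and 2 were higher. Igfbp5 had 439, 970, 573 and 636 CPM against 152, 170, 197 and 128 CPM (fold 1.63 ± 0.434, adjusted p = 0.0167). It did not pass without frame 1 (0.126), 3 (0.387) or 4 (0.505). Igfbp2 had 9 UMIs (fold 2.48 ± 0.646) and did not pass with any frame left out (adjusted p at least 0.0912). Igfbp4 (fold 1.94 ± 0.598, adjusted p = 0.0656) and Igfbp7 did not pass, and Igfbp6 had 31.3, 108, 107 and 136 CPM against 19.1, 24.1, 21.3 and 24.2 CPM (adjusted p = 0.214). Igf1 had 1 UMI in fibroblast spots against 210 in the others. The ratio of other to fibroblast spots in pooled CPM was 5.73 (95% counting interval 1.02 to 227), and Igf1 did not pass (adjusted p = 0.370).

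The Wnt list matters here because the vector carries Wif1, a secreted Wnt inhibitor. Sfrp2, a secreted frizzled-related protein of fibroblasts, had 407, 431, 716 and 318 CPM against 85.9, 74.2, 39.1 and 46.8 CPM. The arms did not overlap (fold 2.67 ± 0.531, adjusted p = 0.000138), but the call was lost without frame 3 (0.351) and frame 4 (0.0529). Wif1 had 0, 0, 1 and 1 UMIs in fibroblast spots and 7, 31, 8 and 10 in the others, too few to be tested. Its pooled level in other spots was 0.764 times that in fibroblast spots, with a 95% counting interval from 0.202 to 6.46, so no difference was detectable at this depth. Its relative Sfrp1 had 0, 3, 2 and 0 UMIs, and Dkk3 had 188, 216, 358 and 90.9 CPM against 180, 195, 152 and 150 CPM. Tcf4, named in the design text, had 5, 0, 4 and 4 UMIs, and Ctnnb1, which encodes beta-catenin, 4, 3, 2 and 7. Of these Sfrp1, Dkk3, Tcf4 and Ctnnb1 were tested and did not pass. In all, 7 of 33 Wnt genes were tested, 1 was higher and 0 were lower, with a median fold of -0.10 over the 7.

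**Figure D3:**
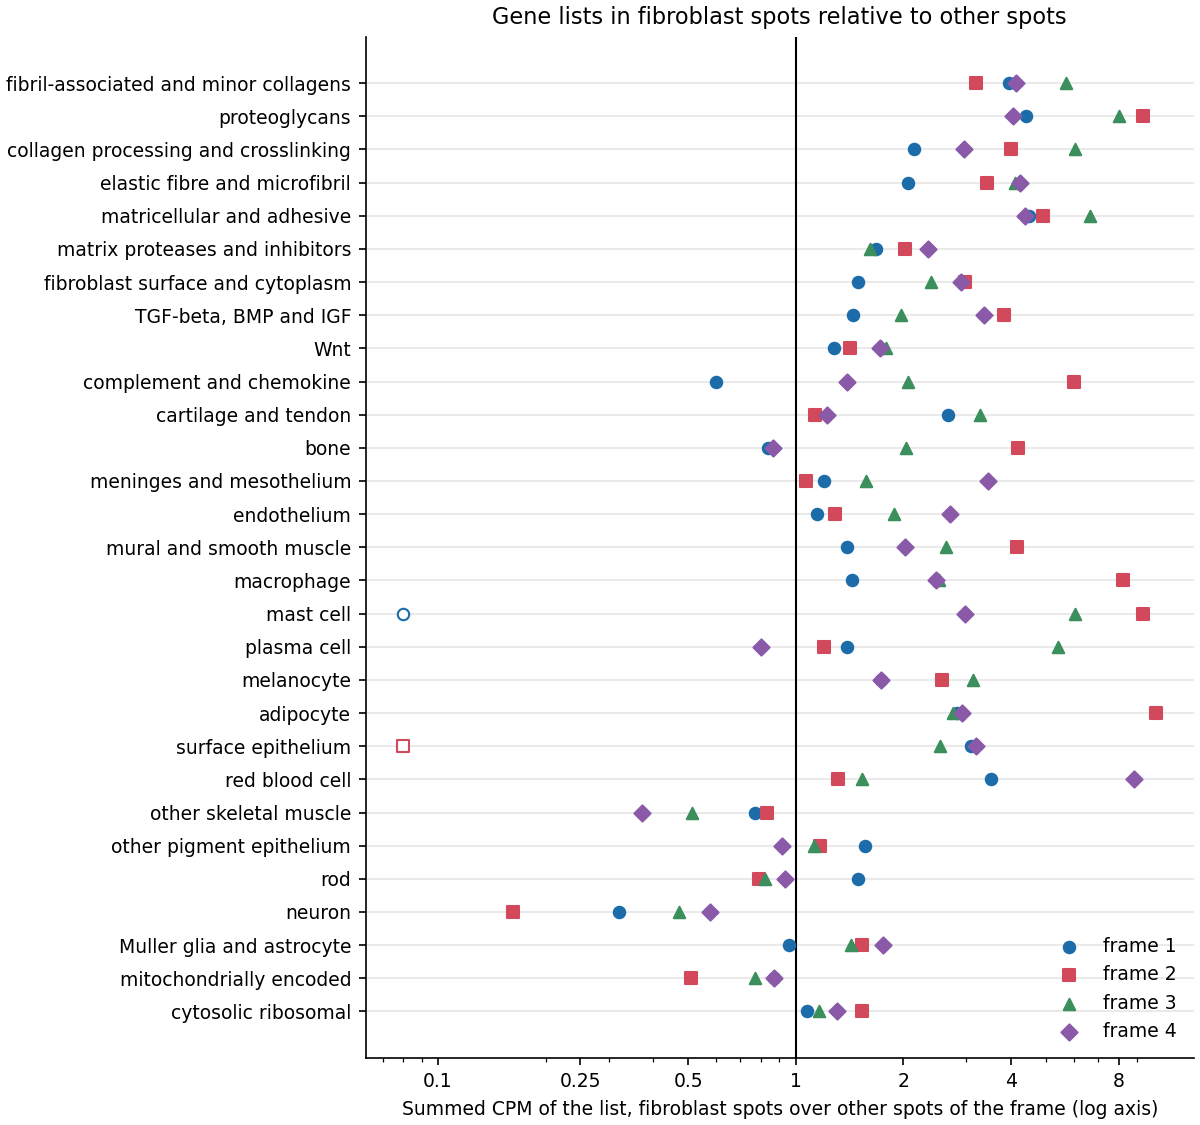
Summed CPM of the gene lists in fibroblast spots divided by that in the other spots of the same frame (log axis), 1 symbol per frame. Open symbols at the left edge mark a list with 0 UMIs in the fibroblast spots of that frame. Matrix lists lie to the right of 1 in all frames, the neuron list to the left, and the rod list on both sides. Several other lists, among them macrophage, melanocyte and endothelium, also lie to the right of 1 in all frames.

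Outside the lists, several enzymes were higher. Aldh3a1, an aldehyde dehydrogenase, had 627, 431, 967 and 455 CPM against 191, 79.0, 140 and 69.4 CPM (fold 2.10 ± 0.457). Fmo1, a flavin monooxygenase, had 971, 539, 537 and 546 CPM against 150, 142, 136 and 82.4 CPM (fold 2.06 ± 0.445). Ace, the angiotensin-converting enzyme, had 783, 1078, 1504 and 546 CPM against 214, 215, 239 and 178 CPM (fold 1.82 ± 0.397). In all 3 the arms did not overlap (adjusted p of 0.000861, 0.000771 and 0.000871). Each of the 3 was lost without frame 3 (0.363, 0.153 and 0.437) and without frame 4 (0.228, 0.242 and 0.163), and Fmo1 also without frame 1 (0.152). The actin gene Actb was at 4450, 18534, 6123 and 9183 CPM against 3583, 3200, 2353 and 2960 CPM (fold 1.14 ± 0.282), and 111 of its 172 UMIs in frame 2 were in 1 spot. Txnip, an inhibitor of thioredoxin, had 1065, 2155, 2005 and 1000 CPM against 461, 450, 441 and 276 CPM (fold 1.55 ± 0.357). Both lost the call without frame 3 (0.536 and 0.527) or frame 4 (0.522 and 0.384). Gm26771, an unnamed transcript, had 33 UMIs (fold 3.00 ± 0.571) and was lost without frame 3 (0.0912).

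Markers of other cell types moved with the fibroblast spots to differing degrees, and their part in the results above was not tested. Macrophage genes summed to 1347, 6897, 2041 and 1682 CPM against 940, 838, 810 and 683 CPM, higher in 4 of 4 frames, with 14 of 16 genes present. Of the 64 macrophage UMIs in frame 2, 42 were in its deepest spot. The macrophage lysozyme gene Lyz2 was the 1 of 10 tested genes that was higher (313, 1832, 645 and 182 CPM against 104, 101, 147 and 80.7, fold 2.04 ± 0.474, adjusted p = 0.00259). It was lost without frame 2 (0.169), 3 (0.275) or 4 (0.0934), and in frame 2 it lay in 2 spots. Complement and chemokine genes stood at 877, 7328, 2363 and 1546 CPM against 1463, 1224, 1145 and 1114 CPM, lower in frame 1 and highest in frame 2, and 0 of 7 tested genes passed. The most complement and chemokine UMIs in 1 spot were 40. Mural and smooth muscle genes stood at 501 to 1509 CPM against 292 to 423 CPM, with Tagln (6 UMIs, fold 2.84 ± 0.703) the 1 higher gene of 6 tested, and Tagln was lost without frame 1, 3 or 4 (adjusted p = 0.143, 0.387 and 0.423). Adipocyte genes had 136 to 862 CPM against 46.8 to 84.8 CPM from 22 UMIs in all. Endothelial genes had 501 to 909 CPM against 338 to 477 CPM, and 0 of 3 tested passed.

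Plasma cell genes reached 10313 CPM in frame 3 against 1285, 1832 and 727 CPM in frames 1, 2 and 4, and 907.6 to 1905 CPM in other spots. In frame 3, 179 of 288 such UMIs were in 1 spot of 2196 UMIs, with 102 of Igkc, the kappa light chain. 0 of 6 tested plasma cell genes passed. Meningeal and mesothelial genes had 2413, 3017, 4977 and 9501 CPM against 2016, 2833, 3164 and 2750 CPM, carried by Ptgds, which makes prostaglandin D2 and is abundant in meninges and pigment epithelium. Ptgds had 2350, 3017, 4548 and 8228 CPM against 1754, 2612, 2920 and 2487 CPM, did not pass (adjusted p = 0.564), and in frame 4 had 59 of 181 UMIs in 1 spot. Of the rest of that list, Nnat had 19 UMIs, all in 7 spots of frame 4, Aldh1a1 had 10, Aldh1a2 6, and Slc6a13, Slc13a4 and Foxp2 at most 2 each. For melanocytes, 9 of 10 genes were present and 0 of 7 tested passed. Dct, a melanin enzyme, had 1943, 4741, 5228 and 682 CPM against 1237, 1782, 1429 and 310 CPM (adjusted p = 0.108).

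Surface epithelium genes had 627, 0, 609 and 909 CPM against 142 to 286 CPM, with 0 of 2 tested passing, and red blood cell genes had 107 to 227 CPM against 25.8 to 81.9 CPM, with 0 of 1. Mast cell genes had 4 UMIs in all, bone genes 14 and cartilage and tendon genes 38, and of these lists 0, 1 and 1 genes were tested and 0 passed. The 23 further skeletal muscle genes stood at 564, 647, 466 and 273 CPM against 735, 780, 909 and 732 CPM, below the other spots in 4 of 4 frames, which the limit on muscle genes bears on directly. The 20 further pigment epithelium genes had 5076, 5603, 5228 and 2728 CPM against 3251, 4786, 4653 and 2986 CPM, and 0 of 14 tested passed. Of 11 Müller glia and astrocyte genes tested 0 passed, and the list had 8228 to 15625 CPM against 4686 to 10528 CPM. Mitochondrially encoded genes had 14440 to 23185 CPM against 24461 to 28329 CPM, lower in 4 of 4 frames, with 0 of 13 passing (median fold -0.86). Cytosolic ribosomal genes had 86645 to 120366 CPM against 66865 to 80680 CPM, with 0 of 79 passing.

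Several genes of retinal neurons and their axons were lower in fibroblast spots than in the other spots. The 21 neuronal genes summed to 3948, 2155, 5729 and 8456 CPM against 12289, 13291, 12168 and 14650 CPM, and 4 of 19 tested were lower and 0 higher, with a median fold of -1.67. The pigment epithelium spots compared further on had 3073, 3815, 4212 and 4044 CPM, so a low level was not particular to fibroblast spots. Nefl, the light neurofilament subunit of large axons, had 407, 216, 1468 and 2909 CPM against 3439, 4379, 4314 and 5326 CPM. Every fibroblast library lay below every other library, with frame 4 closest (fold -2.39 ± 0.334, adjusted p = 2.15e-09). Nefm, the middle subunit, had 2, 0, 2 and 4 UMIs, or 62.7, 0, 71.6 and 182 CPM, against 464, 488, 637 and 675 CPM (fold -3.02 ± 0.567, adjusted p = 4.22e-05). Both passed with any frame left out. Snap25, part of the vesicle fusion machinery, had 1410, 754, 1110 and 2091 CPM against 3651, 3657, 3011 and 3690 CPM (fold -1.71 ± 0.322, adjusted p = 4.44e-05), and missed the threshold without frame 3 (0.0912). Sncg, gamma-synuclein, an abundant ganglion cell protein, had 94.0, 216, 645 and 591 CPM against 882, 840, 1004 and 1147 CPM (fold -1.74 ± 0.416, adjusted p = 0.00398). Without frame 1, 3 or 4 it did not pass (0.237, 0.0912 and 0.100). Nap1l5, an imprinted neuronal gene, had 1097, 216, 1361 and 2591 CPM against 4106, 3652, 3972 and 4502 CPM (fold -2.04 ± 0.326, adjusted p = 3.27e-07).

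The largest falls were in genes with almost no UMIs in fibroblast spots. Kcnh7, a neuronal potassium channel gene, had 0 UMIs against 97, 160, 99 and 78 in the other spots, which puts it at least 3.95-fold lower with a floor of 3 UMIs over all fibroblast spots. Moxd1 had 0 against 113, 95, 63 and 45 UMIs and was at least 2.87-fold lower. Nsg1, an endosomal gene of neurons, had 1 UMI against 476 (pooled ratio of other over fibroblast spots 13.0, 95% counting interval 2.32 to 514), Atp6v1e1, a proton pump subunit, 1 against 473 (12.9, 2.31 to 511), and Usp38, a ubiquitin protease, 2 against 593 (8.09, 2.23 to 67.0). The fit called these 5 genes lower (adjusted p = 0.0117, 0.0435, 0.0338, 0.0343 and 0.0270), and of the 4 fits without a frame Moxd1 passed none and the other 4 genes only that without frame 2. Tmem163, a zinc transporter gene, had 0, 0, 1 and 4 UMIs against 243, 377, 267 and 243 (fold -2.95 ± 0.672) and did not pass without frame 1 (0.106) or frame 3 (0.160). Inpp5f, a phosphoinositide phosphatase gene, Azin1, a regulator of polyamine synthesis, and Crmp1, a cytoskeletal protein of growing axons, had folds of -2.78, -2.63 and -2.41. Each was lost without frame 3 (0.418, 0.222 and 0.230) and frame 4 (0.0748, 0.0529 and 0.162), and the first 2 also without frame 1 (0.162 for both).

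A separate set of lower genes varied strongly between frames in all spots. Gm42418, a locus that overlaps ribosomal RNA sequence, had 6267, 1185, 1468 and 11183 CPM in fibroblast spots against 6875, 15560, 12286 and 57457 CPM (fold -2.59 ± 0.350). Lars2, a mitochondrial tRNA synthetase gene, had 282, 0, 71.6 and 818 CPM against 806, 1971, 1687 and 8706 CPM (fold -3.54 ± 0.413, adjusted p = 4.74e-14). AY036118 had 2256, 108, 286 and 2909 CPM against 1191, 3272, 2159 and 12922 CPM, so it was higher in fibroblast spots in frame 1 and lower in the other 3. Frame 4 was high in both arms for all 3 genes, and frame 1 showed little or no difference for Gm42418. Without frame 2, Gm42418 (adjusted p = 0.679) and AY036118 (0.812) did not pass, and AY036118 did not without frame 3 (0.160) or frame 4 (0.0897).

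**Figure D4:**
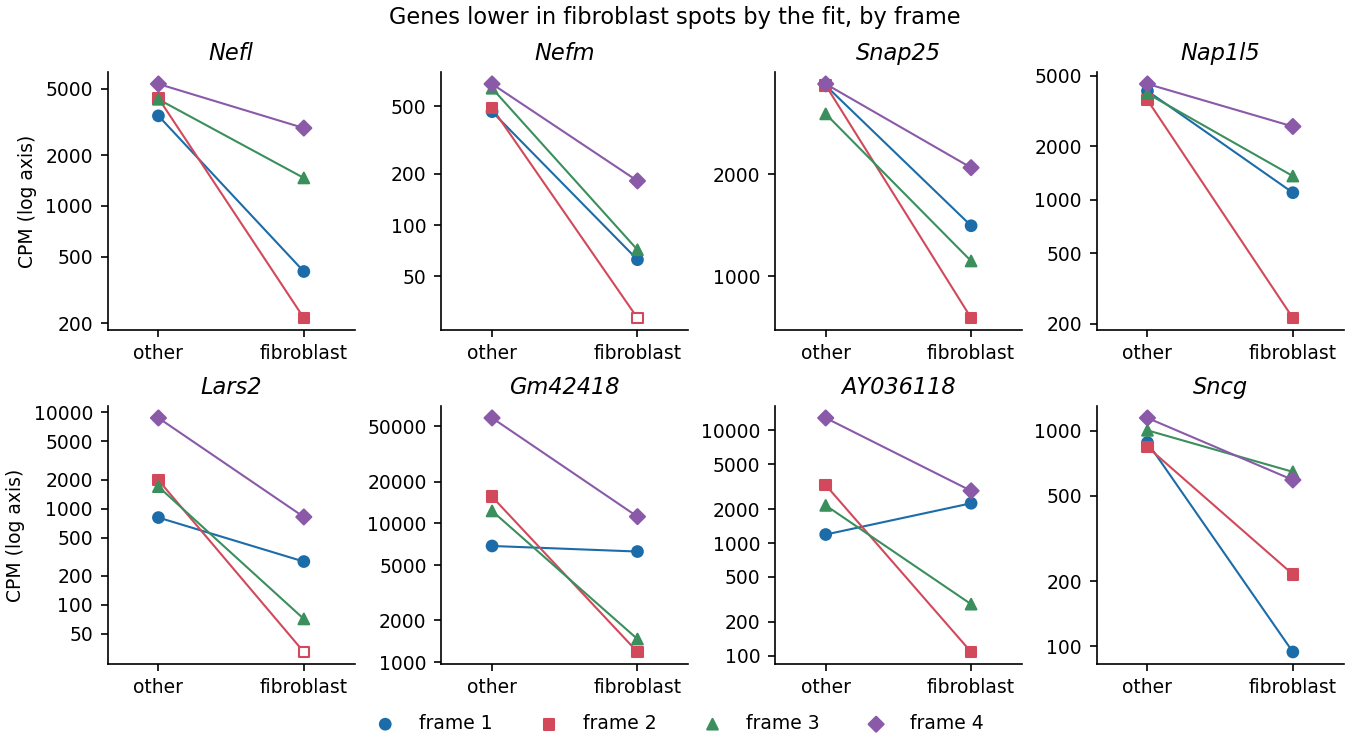
CPM (log axis, own scale in each panel) of 8 genes lower in fibroblast spots by the fit, with the other spots of a frame on the left and its fibroblast spots on the right, 1 line per frame. Open symbols mark 0 UMIs and are drawn at the foot of the panel. Nefl, Nefm, Snap25, Nap1l5, Lars2 and Sncg fall in every frame, while AY036118 is higher in fibroblast spots in frame 1.

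Pigment epithelium spots were those with at least 4 UMIs of the 6 pigment genes: 44, 151, 101 and 28 by frame. Fewer genes were deep enough here, and 9 of 449 were higher in fibroblast spots (2.00%) and 12 lower (2.67%), 4.68% in either direction. Olfml3 was higher, with 595, 2047, 2435 and 909 CPM against 519, 232, 476 and 162 CPM (fold 2.13 ± 0.454, adjusted p = 0.0260). Mmp23 (1.73 ± 0.452), Ace (1.67 ± 0.366) and Aldh3a1 (1.60 ± 0.421) were higher too, as were Pam, which amidates peptides (1.69 ± 0.350), B2m, the light chain of class I histocompatibility molecules (1.62 ± 0.423), Actb (1.53 ± 0.284) and Tmsb4x, an actin-binding peptide (1.62 ± 0.427). All were higher in 4 of 4 frames, and Pam, Mmp23 and Aldh3a1 met the filter on low counts through the fibroblast libraries alone, so their values are a description. With the filter over both arms Pam (adjusted p = 0.166) and Aldh3a1 (0.0627) did not pass, and Mmp23 did (0.0448). Igkc had 752, 431, 5336 and 409 CPM against 260, 77.3, 357 and 324 CPM (fold 2.45 ± 0.560), 102 of 149 UMIs in frame 3 being in 1 spot. Bgn (533, 1509, 788 and 364 CPM against 584, 166, 247 and 162), Sparc and Mfap5 had folds of 1.55, 1.47 and 1.85 and did not pass (adjusted p = 0.134, 0.100 and 0.0877). With the filter on the UMIs of both arms together, all 3 passed with folds of 1.42, 1.34 and 1.74 (adjusted p = 0.0448, 0.00637 and 0.0227). Bgn was lower in fibroblast spots in frame 1. By list, matrix proteases and inhibitors had 5421, 7759, 7233 and 6455 CPM against 7445, 8789, 9614 and 6470 CPM, lower in frames 1, 2 and 3 and nearly equal in frame 4. Of 3 genes of this list tested, 1 was higher (Mmp23) and 0 lower. The list had 173, 72, 202 and 142 UMIs in fibroblast spots, of which 330 in all were of 1 gene, Cst3. Proteoglycans (846 against 866 CPM) and collagen processing genes (2413 against 2662 CPM) were lower in frame 1 and higher in the other frames. The lists of further collagens, elastic fibres and matricellular proteins were higher in 4 of 4 frames. Neuronal genes, at 3948, 2155, 5729 and 8456 CPM against 3073, 3815, 4212 and 4044 CPM, were lower in frame 2 and higher in the other frames. Of 4 neuronal genes tested 0 passed, with a median fold of 0.21.

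Genes of the pigment epithelium were placed to be lower than in pigment epithelium spots by the definition of both sets. Ttr, the thyroid hormone and retinol carrier, had 1159, 1832, 1038 and 955 CPM against 3874, 6460, 4542 and 4165 CPM (fold -1.88 ± 0.234, adjusted p = 0.000847) and passed with any frame left out. Rdh10, a retinol dehydrogenase, had a fold of -2.64 ± 0.437, Pon1, a lactonase, -2.44 ± 0.405, Cltrn, an amino acid transporter partner, -2.36 ± 0.431, and Enpp2, the autotaxin gene, -2.30 ± 0.515. Cat, Trf, Mt1, Slc13a3, Prxl2a, Arl6ip1 and Ptgds made up the rest, with folds from -1.88 to -0.98. Of the genes of this comparison, Actb, Tmsb4x, Aldh3a1, Trf, Mt1, Slc13a3, Prxl2a and Arl6ip1 are named after their values were seen. Without frame 3 the comparison called 0 genes higher and 1 lower (Ttr), without frame 2 it called 5 and 8, and without frame 1 it called 23 and 19. With the spot richest in plasma cell UMIs left out, 4 were higher and 8 lower, an alternative chosen after seeing the data. A comparison with muscle spots could not be run, since only frame 2 held 10 or more of them (8, 11, 8 and 9 spots).

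The fibroblast spots were also compared among themselves. Splitting the fibroblast spots of frames 1, 3 and 4 at the median matrix share of the frame, 0 of 195 genes passed (0.00%), with 13 at an unadjusted p below 0.05 by edgeR and 5 by DESeq2, which also called 0. Frame 2 had too few spots to split. The split is by a share that the rule also used, and a shallow spot needs a higher share to reach 4 matrix UMIs. Matrix-rich spots held 8884, 14045 and 8096 UMIs in frames 1, 3 and 4, against 23028, 13881 and 13901 in matrix-poor spots. Depth and matrix content thus cannot be told apart in frames 1 and 4. Bgn had 1126, 1210 and 741 CPM in the matrix-rich spots against 304, 360 and 144 CPM in the matrix-poor spots of frames 1, 3 and 4 (fold 1.87 ± 0.526, adjusted p = 0.622), and met the filter through the matrix-rich spots alone. Sparc had 1351, 5625 and 2594 CPM against 1303, 1585 and 935 CPM (fold 1.13 ± 0.450, adjusted p = 0.626), and with frame 1 left out it passed (fold 1.75, adjusted p = 0.00479). Such a fit rests on 2 frames in each arm, fewer than the minimum of 3 set for a comparison. That fit called 4 genes higher (Sparc, Aebp1, Glul and Sorbs2) and 1 lower (Gm42418), and without frame 4 2 were called higher (Rnf25 and Itm2a). The rod disc gene Prph2 had 1351, 854 and 1482 CPM in matrix-rich against 2910, 1801 and 3093 CPM in matrix-poor spots and did not pass (fold -1.11 ± 0.412, adjusted p = 0.622).

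Rod RNA and matrix RNA were set side by side over single spots. The rod share of UMIs had a median of 2.48% over fibroblast spots (lowest 0, highest 10.3), and 19 of 87 spots were under 1%. Spearman's rank correlation between matrix share and rod share was -0.73 in frame 1 (n = 28), -0.33 in frame 2 (n = 11), 0.04 in frame 3 (n = 24) and 0.01 in frame 4 (n = 24). Spots of a frame share a library, and both values are shares of the same UMIs, so no test is given. In frame 1 spots with a higher matrix share tended to have a lower rod share, and the values of frames 3 and 4 were near 0. A high share is not a high amount: the highest share in frame 1, 4.05%, was 13 matrix UMIs of 321. The spot with the most matrix UMIs there, 21 of 2812, had a share of 0.747%. Melanocyte RNA was spread otherwise: 33 fibroblast spots had 5 or more melanocyte UMIs (12, 6, 13 and 2 by frame), 36 had 1 to 4 and 18 had 0, of which 13 were in frame 4. Median matrix share was 0.747, 0.960 and 0.868% in these 3 sets.

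**Figure D5:**
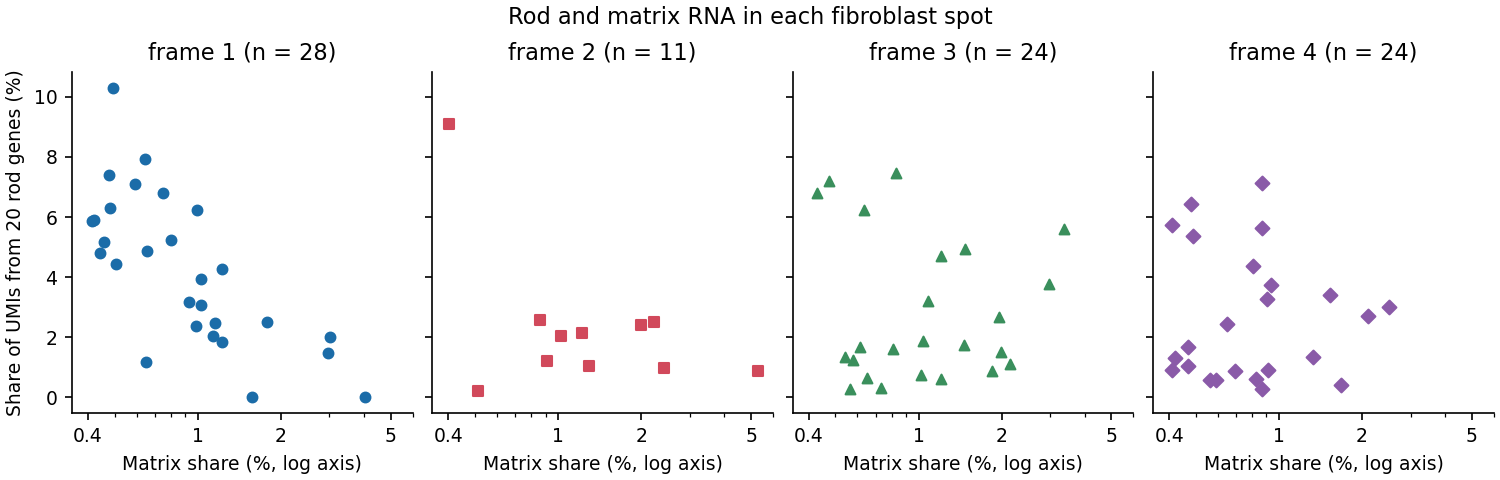
Share of UMIs from 20 rod genes (percent) against share from the 8 matrix genes (percent, log axis) in each fibroblast spot, 1 panel per frame. In frame 1 the rod share falls as the matrix share rises (rank correlation -0.73), and frames 3 and 4 show no order (0.04 and 0.01).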

How the data were processed

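Spatial RNA profiles of 4 Visium frames were used. The deposited counts are UMIs per gene and spot over tissue, made by the authors with Space Ranger 2.0.0 per the file headers, on mm10 per the submitters' processing notes. How spots were aligned to the image was not used. Spots were taken by the rule on 20 genes, and UMIs were summed per frame and arm. With edgeR 4.0.16 (R 4.3.3), genes were kept by filterByExpr (minimum count 10), scaled by TMM and tested by the quasi-likelihood test with frame as a block, with Benjamini-Hochberg adjustment at 0.05. An arm needed at least 10 spots in at least 3 frames, so the comparison with muscle spots was not run. The 20 rule genes were left out of the tests. Doublets were not called, since spots hold several cells.

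Both arms come from the same frame, so the block follows the design. Deviations of the paired arms correlated at 0.04, 0.07, 0.12 and 0.15 in frames 1 to 4 for the other spots, at -0.02, 0.15, 0.24 and 0.18 for pigment epithelium spots, and at 0.09, 0.33 and 0.32 in frames 1, 3 and 4 for the matrix split.

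Genes named by rule are the 10 largest called folds in each direction that moved the same way in every frame (6 in the other comparisons), up to 4 genes per list by p (3 in the others), and 25 fixed genes; others are said to be named after their values were seen. The members and the 30 gene lists were chosen with earlier results of these data known. Alternatives included DESeq2 1.42.0, other filters and scalings, other limits of the rule and leaving out each frame. Scripts were tested on simulated data. The result of 1 list is not reported here.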

Additional observations from a re-analysis of the deposited data

Results flagged for a closer look

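Of 116 per-frame values of fibroblast spots checked (summed lists, called genes, matrix genes and the share of spots), 13 had 1 frame far from the other 3 (by Dixon's test at the 95% level). Chance gives about 1 in 20 for normally distributed values. A gene with UMIs in only 1 frame always stands apart by this test, so that rate need not hold here.

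In frame 2, which had the fewest fibroblast UMIs, the macrophage list stood apart at 6897 CPM, the adipocyte list at 862 CPM and the cytosolic ribosomal list at 120366 CPM. Of the 64 macrophage UMIs 42 were in the deepest spot, and the adipocyte list had 8 UMIs in frame 2. Mmp23, a metalloprotease gene, was high there at 1185 CPM, Thbs2, a thrombospondin gene, at 323 CPM, and Oga, the enzyme gene that removes O-linked N-acetylglucosamine, at 216 CPM. Thbs2 and Oga had 9 UMIs each over all frames, and in frame 2 Oga lay in 1 spot. In frame 3 the plasma cell list reached 10313 CPM, with 179 of 288 UMIs in 1 spot, the splicing-related gene Rbbp6 stood at 286 CPM and the proton pump gene Atp6v1e1 at 35.8 CPM, which is 1 UMI against 0 in the other frames. In frame 1 Fmo1 was high at 971 CPM, Kifap3, a kinesin adaptor gene, at 752 CPM, Crmp1 at 407 CPM, and Nsg1 at 31.3 CPM, again 1 UMI against 0.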

How the results depend on the processing

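Counts of called genes moved with most choices, and none of the 74 and 21 genes called in the first 2 comparisons reversed its direction. Of genes not called, the 40 UMI filter turned folds near 0 of Col8a2 (0.03 to -0.11) and Tyrp1 (0.06 to -0.08) against pigment epithelium spots and of Nefl in the matrix split (-0.06 to 0.00). Against other spots (37 higher, 37 lower), DESeq2 called 17 lower. Without TMM 62 were higher and 14 lower, and without a filter on low counts 6 were higher. Without the replicate block 84 were higher and 127 lower. Members with a matrix share of at least 0.8% gave 23 higher and 32 lower, without frame 2, which then held 9 spots, and other spots with no matrix UMI 64 and 58. Leaving out 1 frame gave 11 to 39 higher and 5 to 39 lower. Of alternatives chosen after seeing the data, at most 1 pigment and 0 muscle UMIs gave 18 and 23 (also without frame 2), leaving out the deepest spot of each frame 23 and 23, and the filter of 40 UMIs over both arms 18 higher.

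Against pigment epithelium spots (9 and 12), no filter gave 1 and 4, the share of at least 0.8% 16 higher, and at least 400 UMIs 1 and 4, the last 2 without frame 2. Leaving out 1 frame gave 0 to 23 higher and 1 to 19 lower. After seeing the data, the deepest spots left out gave 15 higher, the plasma cell spot left out 4, and the 40 UMI filter 22 and 23. Without the replicate block 7 were higher and 9 lower. The matrix split (0 and 0) gave 0 to 4 higher and 0 to 1 lower with 1 frame left out, 1 higher with the 40 UMI filter, and 0 and 0 without the replicate block.

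The mean share of fibroblast spots, 2.36%, was 1.40% at a matrix share of at least 0.8% and 1.10% with 0 pigment and muscle UMIs. With that last limit neither gene comparison could be run, since 2 frames held 10 spots. The cause of these changes was not tested. With 9280 to 31912 UMIs per frame, low genes rest on single molecules.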
